A study of Mus musculus with 10 samples.

Results

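Interferon-stimulated genes and genes of MHC class I antigen presentation were followed in primary mouse keratinocytes, the cells that build the epidermis. The list held 37 gene symbols, and its members were found in the deposited table through the Ensembl identifiers that carry these symbols on GRCm38. Of the 37, 36 had a row, among 37991 identifiers in all, and Psmb9 was not analysed here. Of those 36 genes, 15 had a mean of at least 1 FPKM (fragments per kilobase of transcript, scaled to the mapped fragments of the library) over 10 libraries and were tested. A further 11 lay under that mean, and 10 were near 0, meaning under 0.1 FPKM in every library. In brief, the MHC class I genes were expressed at 1.88 to 107 FPKM apart from Psmb8, most antiviral effectors were near the detection limit, and no tested member passed the threshold for IL-17A or for genotype.

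Interferons bind paired receptors on the cell surface, and Janus kinases attached to these receptors activate STAT proteins. STAT2 and IRF9 are parts of a complex that binds a short DNA element, the ISRE (interferon-stimulated response element), near genes whose products block virus entry, replication and release. The same cytokines raise the MHC class I pathway, in which a proteasome cuts proteins, the TAP transporter carries peptides into the endoplasmic reticulum, and a heavy chain paired with beta-2 microglobulin shows them on the cell surface. Keratinocytes respond to interferons in viral infection and in inflamed skin, and NF-kB also acts on several of these genes.

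Cells came from skin of pups at postnatal days 4 to 5 that carried the allele Bcl10tm1Mak, either as Bcl10-/- (knockout) or as Bcl10+/- (heterozygous); no wild-type group was present. BCL10 is an adaptor that links CARD-family proteins to the protease MALT1 in NF-kB signalling. Cells in serum-free medium with 0.05 mM calcium chloride either had no stimulation or had recombinant mouse IL-17A, a cytokine that raises antimicrobial and inflammatory genes in the epidermis, at 200 ng/mL for 5 h. Each condition had 2 libraries labelled knockout and 3 labelled heterozygous; libraries that share a genotype and a replicate number are called a culture here, and the labels do not say whether these numbers are animals, litters or wells.

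Each library held an estimated 15.85 to 50.55 M fragments, so that 3 fragments from a transcript of 1 kb correspond to 0.0593 to 0.189 FPKM, a limit that covers counting error only. The basal keratinocyte keratin Krt5 was at 4430 to 6430 FPKM, and of 7 leukocyte markers 6 were listed at 0 in every library. In knockout culture 2 the summed level of 5 fibroblast markers was 26.4 and 27.3 FPKM, against 0.159 to 0.454 FPKM in the other libraries. Bcl10 mRNA read 0.969 FPKM in the unstimulated library of knockout culture 1 and 16.4 to 17.0 FPKM in the other 3 knockout libraries. Both libraries labelled heterozygous culture 1, at 18.0 and 16.3 FPKM, sat far under the 59.5 to 72.3 FPKM of heterozygous cultures 2 and 3 and so went against their label. Every genotype result therefore refers to libraries as labelled, and values without that culture are given beside or after those with all libraries. Sprr2e, a cornified envelope gene with near-identical copies that was picked after its values were seen, was at 5.73 to 9.1 FPKM in the unstimulated libraries and at 20.0 to 21.7 FPKM with IL-17A.

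The promoters of 6 members are shown because they carry the regulatory words through which these genes are known to be switched on, and because the 6 genes had very different levels in the same cells. RefSeq windows of GRCm38.p6, reaching from 250 bases before to 50 bases after the start site, were found for 29 members. Only the 250 bases before the start site were searched for words. Capitals mark ISRE-type words (GAAANNGAAA or its reverse complement TTTCNNTTTC) and NF-kB-type words (GGGANNNNCC or GGNNNNTCCC), searched on both strands, and overlapping words form one run of capitals. All are written 5' to 3' on the strand of the gene. The B2m stretch lies inside an annotated transcript of Patl2 on the other strand and the Cxcl10 stretch inside transcripts of Art3, without touching an exon of either, and the other 4 stretches lie in no annotated gene.
Ifit1 (chr19:34640770-34640828, plus strand, ISRE-type): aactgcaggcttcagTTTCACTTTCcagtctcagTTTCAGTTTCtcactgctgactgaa
Isg15 (chr4:156200860-156200911, minus strand, ISRE-type): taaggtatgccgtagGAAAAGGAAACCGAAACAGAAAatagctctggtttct
Bst2 (chr8:71537572-71537617, minus strand, ISRE-type): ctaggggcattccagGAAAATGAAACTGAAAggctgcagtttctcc
Cxcl10 (chr5:92348968-92349117, minus strand, ISRE-type then NF-kB-type): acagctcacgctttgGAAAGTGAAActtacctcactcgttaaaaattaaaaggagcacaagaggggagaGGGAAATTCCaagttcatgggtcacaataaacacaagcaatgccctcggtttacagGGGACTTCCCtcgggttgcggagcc
B2m (chr2:122147533-122147585, plus strand, ISRE-type then NF-kB-type): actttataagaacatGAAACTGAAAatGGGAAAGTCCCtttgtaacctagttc
H2-K1 (chr17:34000433-34000473, minus strand, NF-kB-type): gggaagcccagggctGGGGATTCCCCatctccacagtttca

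Ifit1 has 2 ISRE-type words, Isg15 has 3 overlapping ones, Bst2 has 2 overlapping ones, and Cxcl10 and B2m each have 1 beside 2 NF-kB-type words. Over the members, 12 of 29 had an ISRE-type word in a window (B2m, Bst2, Cxcl10, Gbp2, Gbp3, Ifit1, Ifit3, Isg15, Oas1a, Oas3, Rsad2 and Stat2), against 3.46% of 27025 genes with such a window. An NF-kB-type word stood in 10 of 29, against 19.7% of genes. The STAT-type word TTCNNNGAA, which reads the same on both strands, stood in 6 of 29, against 8.13%. These are matches of letters in fixed windows and do not show that a factor was bound. Among the 12 genes with an ISRE-type word, mean levels ran from B2m near the top of the transcriptome to Oas3, which was near 0.

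**Figure D1:**
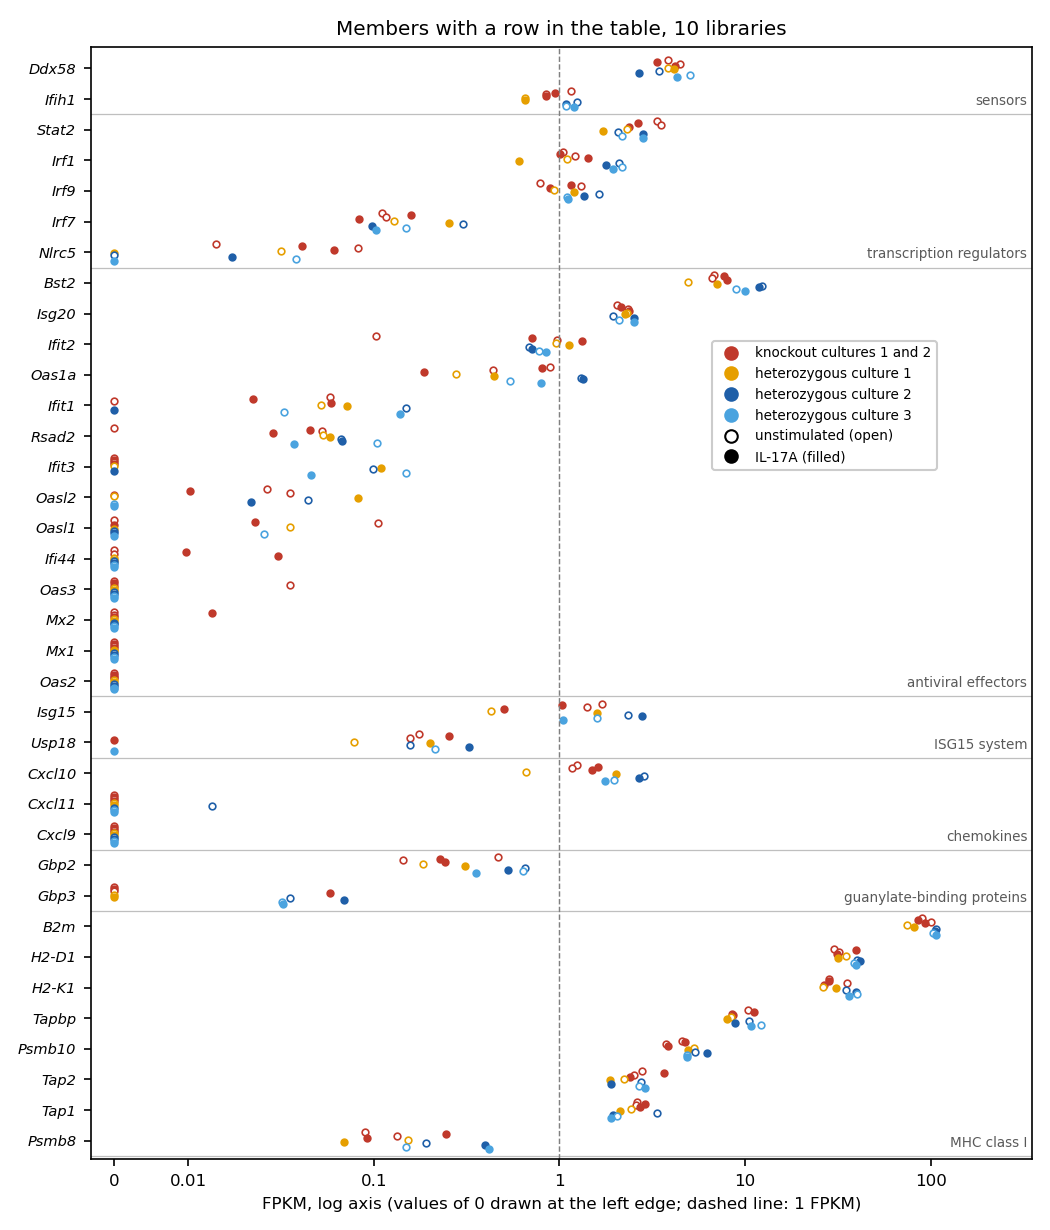
FPKM on a log axis of each member with a row, grouped by role, with 1 point per library (open, unstimulated; filled, IL-17A; colours, cultures) and values of 0 at the left edge. B2m at 74.1 to 107 FPKM stands at the top, while Mx1, Oas2 and Cxcl9 lie at 0 in all 10 libraries.

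Both cytosolic RNA sensors were present. Ddx58 (ENSMUSG00000040296; chr4:40203773-40239828, minus strand), which encodes RIG-I, was at 3.84 and 3.33 FPKM (unstimulated, then IL-17A) in knockout culture 1 and at 4.46 and 4.17 FPKM in knockout culture 2. The libraries labelled heterozygous had 3.85 and 4.12 FPKM in culture 1, 3.44 and 2.69 FPKM in culture 2, and 5.07 and 4.28 FPKM in culture 3, so the groups overlapped. Ifih1 (ENSMUSG00000026896; chr2:62595798-62646255, minus strand), which encodes MDA5, had 1.15, 0.943, 0.841 and 0.841 FPKM in the knockout libraries, in the same order. In the heterozygous libraries it had 0.65, 0.653, 1.24, 1.08, 1.09 and 1.2 FPKM, and its mean fell just under the filter.

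Among the transcription regulators, Stat2, Irf1 and Irf9 were tested, Irf7 was below the filter and Nlrc5 was near 0. Stat2 (ENSMUSG00000040033; chr10:128270559-128292849, plus strand), the STAT protein of the ISRE-binding complex, was at 3.34 and 2.65 FPKM in knockout culture 1 and 3.5 and 2.38 FPKM in knockout culture 2. In heterozygous cultures 1, 2 and 3 it was at 2.3 and 1.71, 2.07 and 2.82, and 2.16 and 2.81 FPKM. The unstimulated knockout libraries were the highest of all 10, and Stat2 was lower with IL-17A in both knockout cultures and in heterozygous culture 1 but higher in heterozygous cultures 2 and 3. Irf1 (ENSMUSG00000018899; chr11:53770014-53778374, plus strand), a regulator of MHC class I and of interferon-gamma targets, was at 1.04 and 1.01, and 1.21 and 1.42 FPKM in the knockout cultures. It was at 1.1 and 0.603, 2.08 and 1.78, and 2.18 and 1.93 FPKM in the heterozygous cultures, where culture 1 sat with the knockout libraries. Irf9 ranged from 0.782 to 1.63 FPKM, and Irf7, a regulator that amplifies the type I interferon response, from 0.0834 to 0.304 FPKM. Nlrc5, the transactivator of MHC class I genes, was at most 0.0822 FPKM, whereas B2m, H2-K1 and H2-D1, which it is known to act on, were the 3 most abundant members.

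Of 14 antiviral effectors, 2 were tested and 6 were near 0. Bst2 (ENSMUSG00000046718; chr8:71534255-71537456, minus strand), which encodes tetherin, a membrane protein that holds budding virus on the cell, was the highest. It had 6.81 and 7.71 FPKM in knockout culture 1 and 6.64 and 7.93 FPKM in knockout culture 2. In the heterozygous cultures it had 4.93 and 7.02, 12.3 and 11.9, and 8.94 and 10.0 FPKM, so culture 1 again lay with or below the knockout libraries. Isg20 (ENSMUSG00000039236; chr7:78913424-78920396, plus strand), an RNA exonuclease, varied little: 2.04, 2.14, 2.35 and 2.36 FPKM in the knockout libraries, and 2.32, 2.25, 1.93, 2.52, 2.08 and 2.53 FPKM in the heterozygous ones.

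The classical interferon-response effectors were low. Mx1 and Oas2 were listed at 0 in all 10 libraries. From the deepest to the shallowest library, 3 fragments correspond to 0.0157 to 0.05 FPKM for Mx1 and to 0.0133 to 0.0425 FPKM for Oas2. Mx2, Oas3, Ifi44 and Oasl2 did not pass 0.0818 FPKM in any library. Ifit1, whose product binds foreign RNA, and Ifit3 reached 0.15 FPKM at most, and Rsad2, which encodes viperin, and Oasl1 reached 0.104 and 0.106 FPKM. The exceptions below the filter were Ifit2 and Oas1a, an oligoadenylate synthetase that starts RNA decay. Ifit2 was at 0.103 FPKM in the unstimulated library of knockout culture 1 and at 0.687 to 1.33 FPKM in the other 9. That library also had 12.6% of its FPKM in its 10 top genes, against 8.21% to 8.66% elsewhere; the part of this in the low Ifit2 value was not tested. Oas1a varied from 0.187 to 1.34 FPKM, with heterozygous culture 2 highest at 1.3 and 1.34 FPKM. Ifit3 and Oas1a have near-identical neighbours, so their values depend on how fragments were shared and are uncertain.

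Isg15 (ENSMUSG00000035692; chr4:156199424-156200818, minus strand), a ubiquitin-like modifier, was at 1.7 and 1.03 FPKM in knockout culture 1 and at 1.4 and 0.501 FPKM in knockout culture 2. It was at 0.426 and 1.59, 2.33 and 2.78, and 1.6 and 1.05 FPKM in heterozygous cultures 1 to 3. These values rest on an estimated 6 to 50 fragments per library in a short transcript, and they moved in opposite directions between cultures. Usp18 (ENSMUSG00000030107; chr6:121245906-121270917, plus strand), the protease that removes ISG15 and dampens receptor signalling, had 0.175, 0.253, 0.156 and 0 FPKM in the knockout libraries and 0.0787, 0.202, 0.157, 0.325, 0.214 and 0 FPKM in the heterozygous ones.

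Cxcl10 (ENSMUSG00000034855; chr5:92346638-92348889, minus strand) was the 1 member of 3 T-cell-attracting CXCR3 ligands that was measurable. It was at 1.24 and 1.61, and 1.17 and 1.5 FPKM in the knockout cultures, and at 0.657 and 2.02, 2.86 and 2.68, and 1.96 and 1.75 FPKM in the heterozygous ones. The unstimulated library of heterozygous culture 1 was the lowest of the 10 and heterozygous culture 2 the highest. Cxcl11 (ENSMUSG00000060183; chr5:92359544-92365485, minus strand) was at 0.0134 FPKM in the unstimulated library of heterozygous culture 2 and at 0 in the other 9, and Cxcl9 was at 0 in all 10. All 3 genes lie close together on chromosome 5.

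The guanylate-binding proteins, GTPases that attack intracellular pathogens, were low. Gbp2 (ENSMUSG00000028270; chr3:142620602-142638008, plus strand) had 0.465, 0.228, 0.144 and 0.241 FPKM in the knockout libraries and 0.184, 0.31, 0.654, 0.526, 0.637 and 0.354 FPKM in the heterozygous ones. Gbp3 (ENSMUSG00000028268; chr3:142560026-142573209, plus strand) stood at 0.0689 FPKM or less and at 0 in 5 libraries.

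The MHC class I genes were the abundant group, with 7 of the 8 measured members tested. B2m (ENSMUSG00000060802; chr2:122147686-122153083, plus strand), the shared light chain, was above 98.1% of identifiers. It had 89.5 and 85.4 FPKM in knockout culture 1 and 100 and 93.3 FPKM in knockout culture 2. The heterozygous cultures had 74.1 and 80.9, 107 and 105, and 103 and 107 FPKM, with culture 1 lowest of all and the other heterozygous libraries highest. H2-D1 (ENSMUSG00000073411; chr17:35262730-35267499, plus strand), a heavy chain, had 30.2, 39.6, 31.9 and 31.1 FPKM in the knockout libraries and 35.1, 31.4, 39.9, 41.3, 38.5 and 39.4 FPKM in the heterozygous ones. H2-K1 (ENSMUSG00000061232; chr17:33996017-34000347, minus strand), the other classical heavy chain, ranged from 26.1 to 39.9 FPKM. Both differ between mouse strains and are close to other class I genes, so their levels are uncertain; neither the strain background nor the sharing of fragments is stated in the labels.

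The peptide-loading genes were lower. Tap1 (ENSMUSG00000037321; chr17:34187553-34197225, plus strand), a subunit of the peptide transporter, was at 2.61 and 2.87, and 2.57 and 2.7 FPKM in the knockout cultures, and at 2.44 and 2.13, 3.33 and 1.94, and 2.03 and 1.89 FPKM in the heterozygous ones. Tap1 was thus higher with IL-17A in both knockout cultures and lower in all 3 heterozygous cultures, and the unstimulated library of heterozygous culture 2 stood above the rest. Tap2, the other transporter subunit, was at 1.88 to 3.66 FPKM, and Tapbp, which encodes tapasin and bridges the transporter to the heavy chain, at 7.93 to 12.2 FPKM.

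The inducible proteasome subunits were minor beside the standard ones they replace. Psmb10 (ENSMUSG00000031897; chr8:105935735-105938444, minus strand) had 4.57, 4.75, 3.76 and 3.83 FPKM in the knockout libraries and 5.32, 4.94, 5.39, 6.25, 4.86 and 4.86 FPKM in the heterozygous ones. Each of the 4 knockout values lay below each of the 6 heterozygous values, including both libraries of heterozygous culture 1; it was the 1 tested member of 15 with all knockout libraries lower in both conditions, beside 2.21% of all tested genes, and 0 of 15 had them all higher, beside 3.09%. Without heterozygous culture 1, 5 of 15 (B2m, Bst2, Cxcl10, Irf1 and Psmb10) had all knockout libraries lower, beside 21.4%, and 0 had them all higher, beside 20.4%. Its level was 2.62% to 3.49% of that of Psmb7, the subunit in the same position of the standard particle. Psmb8 was at 0.0694 to 0.419 FPKM, which is 0.0947% to 0.393% of Psmb5.

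**Figure D2:**
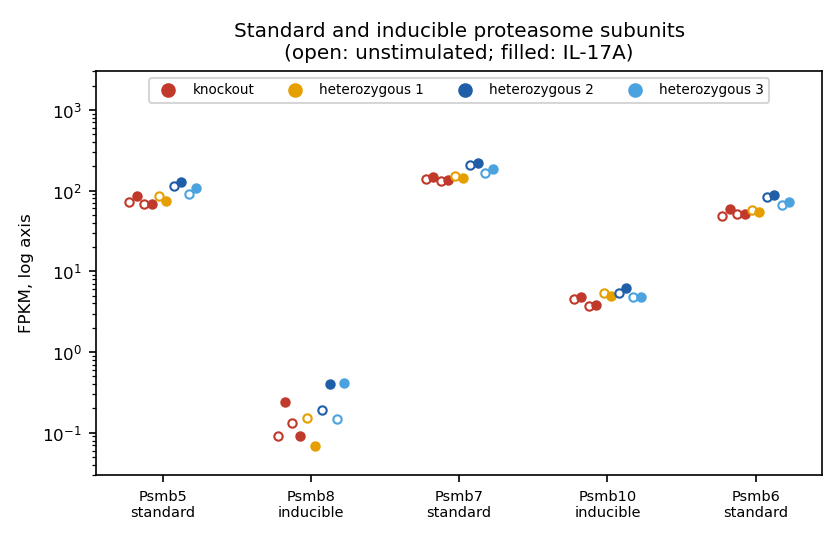
FPKM on a log axis of the standard subunits Psmb5, Psmb7 and Psmb6 and the inducible subunits Psmb8 and Psmb10, with 1 point per library. Psmb8 lies at 0.0694 to 0.419 FPKM against 67.4 to 126 FPKM for Psmb5 in the same libraries.

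Genes around the members showed which steps of the pathway had transcripts in these cells. Of 7 interferon genes (Ifna4, Ifnb1, Ifne, Ifnk, Ifng, Ifnl2 and Ifnl3), 5 were at 0 in every library and none passed 0.0521 FPKM. All 6 receptor chains were tested, with Ifnar1 at 6.01 to 7.92 FPKM, Ifngr2 at 7.26 to 12.7 FPKM and Ifnlr1 at 1.6 to 2.63 FPKM. Of 13 signalling genes 11 were tested, among them the kinases Jak1 at 17.6 to 23.3 FPKM and Tyk2 at 5.28 to 7.0 FPKM. All 4 inhibitors (Socs1, Socs3, Ptpn2 and Irf2) were tested. Of 24 further interferon-stimulated genes, 9 were tested, led by Ifitm3, which blocks virus entry, at 88.1 to 128 FPKM, and 5 were near 0. All 8 further class I genes were tested, including the chaperone Calr at 247 to 377 FPKM. MHC class II was low, with 3 of 5 genes near 0. Ciita and H2-Aa were at 0 in every library, and H2-Eb1 ranged from 0 to 0.346 FPKM.

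Exposure to IL-17A was compared with no stimulation to ask whether it moved these genes. Changes were fitted with limma on log2(FPKM + 1), a scale that understates changes of low genes, and called at a Benjamini-Hochberg adjusted p under 0.05 over 12054 genes. Over the 5 cultures, with each culture as a block, 0 of 15 members were called and 1 had an unadjusted p under 0.05, beside 0.149% of all tested genes called (18, all higher, with 727 at an unadjusted p under 0.05). That member was Bst2, with a log2 difference of 0.19 (SE 0.069; 95% interval 0.02 to 0.35), an unadjusted p of 0.0337 and a limma adjusted p of 0.783; it was higher with IL-17A in 4 of 5 cultures. Ddx58 came next, at -0.13 (SE 0.061, adjusted p = 0.855), and was lower in 4 of 5 cultures. The 15 members had a median difference of -0.03, against -0.01 over all tested genes. Each of the 15 intervals lay within 1 in either direction on the log2(FPKM + 1) scale, and that of B2m ran from -0.11 to 0.10. For members near 1 FPKM, lying within 1 on this scale does not by itself exclude a 2-fold change in FPKM. The interval of Isg15 ran from -0.60 to 0.45, and that of Irf9 from -0.225 to 0.238.

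**Figure D3:**
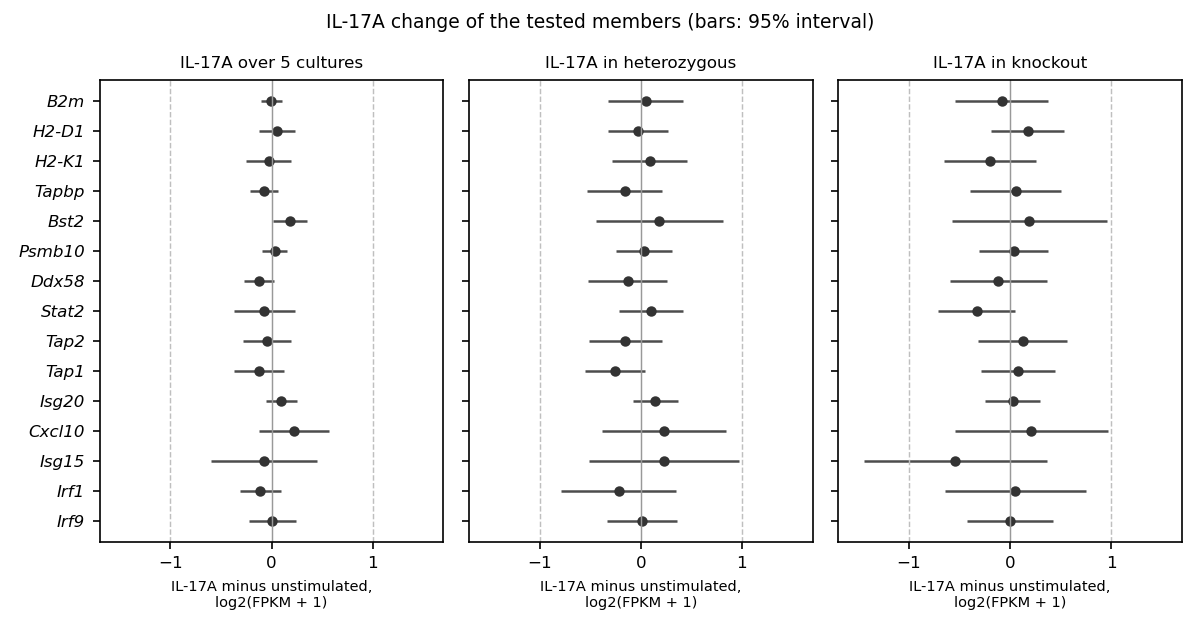
IL-17A minus unstimulated on the log2(FPKM + 1) scale for the 15 tested members, as estimates with 95% intervals from limma, over 5 cultures and within each labelled genotype; dashed lines mark a difference of 1, which is more than 2-fold in FPKM for the low members. For the 5 cultures all 15 intervals lie inside the dashed lines, and within the knockout libraries that of Isg15 reaches beyond one. The fit over 5 cultures paired the libraries of a culture, and the fits within each genotype did not.

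No member was called within either genotype, in fits that did not pair the libraries of a culture. In the libraries labelled heterozygous (3 against 3), 0 of 15 members were called by limma and 0 had an unadjusted p under 0.05, beside 0.0083% of all genes called (1 of 12054). The 2 smallest p-values belonged to Tap1, at -0.25 (SE 0.131), and Isg20, at 0.14 (SE 0.097), both with an adjusted p of 1.0. In the libraries labelled knockout (2 against 2), 0 of 15 were called by limma and 0 had an unadjusted p under 0.05, beside 0.0249% of all genes (3 of 12054). Stat2 was at -0.33 (SE 0.17) and Isg15 at -0.54 (SE 0.398), both with an adjusted p of 1.0, and both were lower in each of the 2 cultures. The median over the members was 0.03 in each genotype, against -0.01 and 0.0 over all tested genes. With each culture as a block, 1 of 15 members had an unadjusted p under 0.05 by limma in the heterozygous libraries, beside 835 genes. In the knockout libraries that fit had 0 of 15 members and 607 genes at an unadjusted p under 0.05.

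The difference between the IL-17A responses of the genotypes was tested as an interaction. With each culture as a block, 0 of 15 members and 624 genes had an unadjusted p under 0.05 by limma. The fit used for the values below did not pair the libraries of a culture. In it, again 0 of 15 members were called by limma and 0 had an unadjusted p under 0.05. Of all genes 0.0% were called, with 143 at an unadjusted p under 0.05. Stat2 had the smallest p, with a difference (knockout change minus heterozygous change) of -0.43 (SE 0.219, unadjusted p = 0.0808, adjusted p = 1.0). Tap1 followed at 0.33 (SE 0.208, unadjusted p = 0.147). The opposite directions of Tap1 in the knockout and heterozygous cultures therefore did not pass the test of the difference. For Isg15 the interval of the difference ran from -1.94 to 0.39, and for Cxcl10 from -0.99 to 0.95, so that a 2-fold difference in FPKM was not excluded for these low members; 12 of 15 intervals lay within 1 in either direction on the log2(FPKM + 1) scale. Without heterozygous culture 1, 0 of 15 members and 1 gene were called by limma, the members' median moved from 0.0 to 0.11, and Stat2 was at -0.62 (SE 0.14) and Tap1 at 0.39 (SE 0.238), both with an adjusted p of 1.0. In that fit 1 of 15 members had an unadjusted p under 0.05 by limma, beside 158 of 12054 genes.

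Unstimulated libraries labelled knockout (2) were compared with those labelled heterozygous (3) to ask whether loss of BCL10 shifted the resting level. No member of the 15 was called by limma, beside 0.0% of all genes called and 562 at an unadjusted p under 0.05. The 1 member with an unadjusted p under 0.05 was Stat2, 0.48 higher on the log2 scale in the knockout libraries (SE 0.155; 95% interval 0.13 to 0.83; unadjusted p = 0.0134, adjusted p = 0.728), and both knockout values lay above all 3 heterozygous values. It was the 1 member of 15 with that pattern, beside 12.3% of all tested genes, and 2 of 15 (H2-D1 and Psmb10) had both knockout values below, beside 15.4%. Without heterozygous culture 1 these counts were 1 of 15 above, beside 29.9%, and 7 of 15 below, beside 34.5%. Psmb10 was next, at -0.27 (SE 0.135, adjusted p = 0.728). The members' median was -0.07, against -0.01 over all tested genes, with 7 positive and 8 negative.

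With IL-17A, the same comparison called 0 of 15 members by limma, beside 0.0249% of all genes (3 of 12054, with 981 at an unadjusted p under 0.05). Tap1 was 0.34 higher in the knockout libraries (SE 0.147; 95% interval 0.01 to 0.68; unadjusted p = 0.0454, adjusted p = 0.507), again with both knockout values above the other 3. It was the 1 member of 15 with that pattern, beside 14.8% of all tested genes, and 4 of 15 (Cxcl10, H2-K1, Isg15 and Psmb10) had both knockout values below, beside 13.8%. Without heterozygous culture 1 they were 1 of 15 above, beside 31.9%, and 9 of 15 below, beside 33.7%. Stat2 differed by 0.05 (SE 0.155), and Psmb10 by -0.26 (SE 0.135, adjusted p = 0.507). The members' median was -0.10, against -0.01 over all tested genes. None of the genes in the receptor, signalling, inhibitor, further interferon-stimulated and further class I lists was called in any of the 6 comparisons; the smallest adjusted p among them, 0.259, belonged to the kinase gene Ikbke, at 0.35 (SE 0.066) for IL-17A over the 5 cultures.

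The genotype estimates of several members depended on heterozygous culture 1, as shown in the plot of genotype differences under 3 choices of libraries. Without both libraries of that culture, limma called 126 of 12054 genes unstimulated (1.05%) and 808 with IL-17A (6.7%), and still 0 of 15 members in either condition. At an unadjusted p under 0.05 by limma there were 5 of 15 members beside 3089 genes unstimulated. With IL-17A there were 4 of 15 members beside 4343 genes. Unstimulated, Stat2 was then at 0.51 (SE 0.099, adjusted p = 0.0689), Irf1 at -0.56 (SE 0.131, adjusted p = 0.0953), Bst2 at -0.57 (SE 0.152, adjusted p = 0.112) and Cxcl10 at -0.62 (SE 0.183, adjusted p = 0.126). With IL-17A, H2-K1 was at -0.45 (SE 0.13, adjusted p = 0.068), the smallest adjusted p of any member in the fits run. Bst2 was at -0.44 and Irf1 at -0.37 there, and Tap1 at 0.38 (SE 0.168, adjusted p = 0.154). Stat2 with IL-17A was at -0.12 (SE 0.099), against 0.05 with all libraries. Psmb10 was at -0.25 (SE 0.152) unstimulated and -0.31 (SE 0.152) with IL-17A. The members' median was -0.21 unstimulated and -0.19 with IL-17A, against -0.02 over all tested genes in each. In the fits without that culture, genotype and the sets of library numbers described below cannot be told apart.

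**Figure D4:**
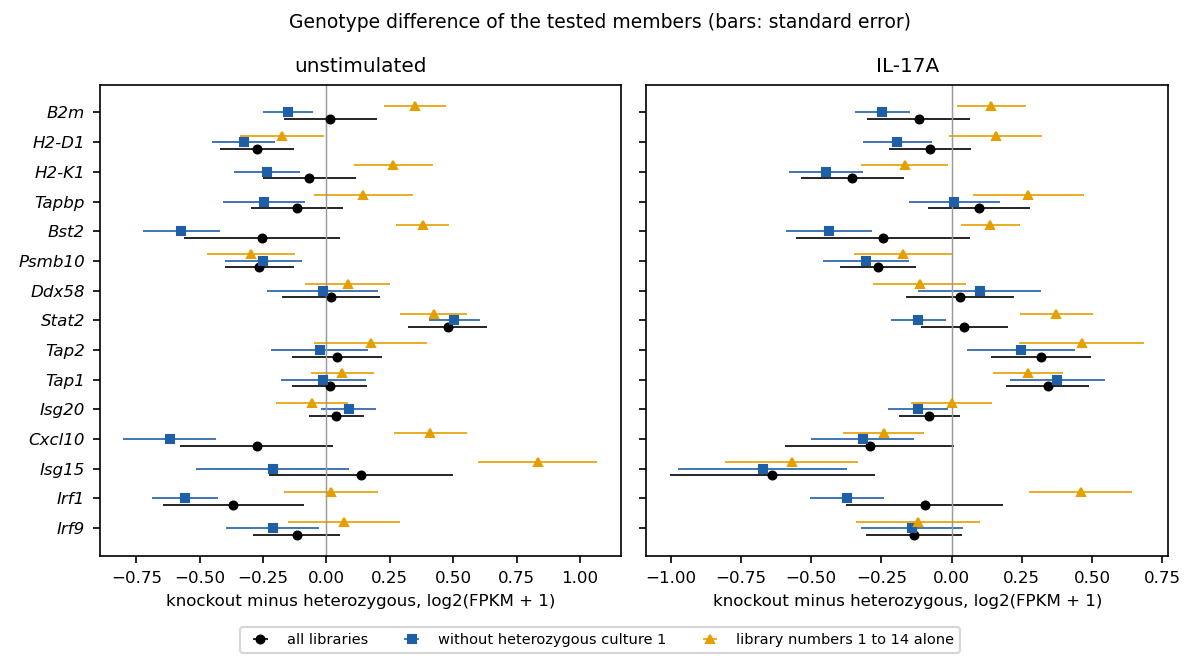
Knockout minus heterozygous on the log2(FPKM + 1) scale for the 15 tested members, unstimulated and with IL-17A, as limma estimates with standard errors, with all libraries, without heterozygous culture 1, or with library numbers 1 to 14 alone. Bst2 unstimulated moves from -0.26 with all libraries to -0.57 without that culture and to 0.38 among numbers 1 to 14, and unstimulated Stat2 lies between 0.42 and 0.51, whereas Stat2 with IL-17A is at 0.05, -0.12 and 0.37 in the same order.

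The labels also give each library a number, without saying what it stands for. Both knockout cultures and heterozygous culture 1 hold numbers 1 to 14 (6 libraries), and heterozygous cultures 2 and 3 hold 33 to 38 (4 libraries). Without heterozygous culture 1, the knockout libraries all lie in the first set and the heterozygous ones all in the second. Irf1, Bst2 and B2m lay higher in every library of the second set than in any of the first: 1.78 to 2.18 against 0.603 to 1.42 FPKM for Irf1, 8.94 to 12.3 against 4.93 to 7.93 FPKM for Bst2, and 103 to 107 against 74.1 to 100 FPKM for B2m. The other 12 tested members overlapped and none lay lower in every library. These 3 of 15 stand beside 18.4% of all tested genes that were higher without overlap, so the share of higher members was near the background. For lower values without overlap the share over all tested genes was 17.4%, beside none of the 15 members.

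The same split ran through other genes measured in these libraries. The 4 melanocyte markers (Mlana, Pmel, Tyr and Dct) summed to 229 to 340 FPKM in the second set and 120 to 159 FPKM in the first, and all 4 were higher without overlap. The 5 basal keratinocyte markers summed to 8350 to 9690 FPKM against 10500 to 11800 FPKM, and the 3 standard proteasome subunits to 324 to 433 against 252 to 296 FPKM. All 3 subunits were higher without overlap, 4 keratinocyte markers were lower, and Trp63 overlapped. Of 6 receptor genes, 3 (Ifngr1, Ifngr2 and Il10rb) were higher in the second set without overlap. Of 11 tested signalling genes, Ikbke was higher and Jak1 lower, and of 4 inhibitors Socs3 was lower. Over all tested genes, 18.4% were higher and 17.4% lower without overlap. In bulk RNA, more cells of a type and more RNA per cell cannot be told apart, and the part of melanocyte RNA, of the library set or of the Bcl10 level in the differences of Irf1, Bst2 and B2m was not tested.

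Among numbers 1 to 14 alone, the knockout libraries were compared with heterozygous culture 1 (4 against 2 libraries, conditions kept apart), where Bcl10 mRNA was at like levels except in the unstimulated library of knockout culture 1. Unstimulated, Bst2 was there at 0.38 (SE 0.105), Cxcl10 at 0.41 (SE 0.143), Isg15 at 0.83 (SE 0.236) and B2m at 0.35 (SE 0.123), each with a limma adjusted p of 0.986. Stat2, at 0.42 (SE 0.131, adjusted p = 0.986), had the sign it had with all libraries; with IL-17A it was at 0.37 (SE 0.131, adjusted p = 0.976). With IL-17A, Cxcl10 and Isg15 had the other sign in this set, at -0.24 and -0.57, while Bst2 and B2m were at 0.14 each. The members' median unstimulated was 0.15 in this set, against -0.21 without heterozygous culture 1. With 1 heterozygous library per condition, the spread in this fit comes from the knockout libraries, and the lone library is assumed to vary like them.

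**Figure D5:**
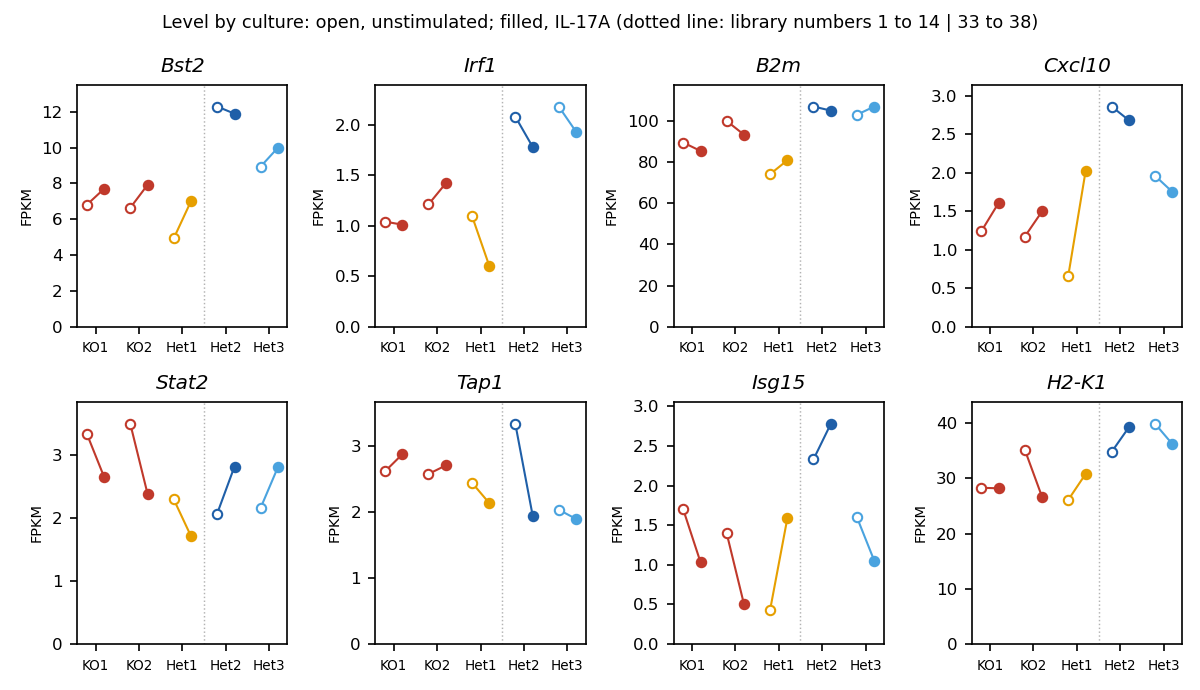
FPKM of 8 members in each culture, with a line from the unstimulated library (open) to the IL-17A library (filled); the dotted line parts library numbers 1 to 14 from 33 to 38. Bst2, Irf1 and B2m are higher right of the dotted line in every library, while the lines of Stat2 and Isg15 run in different directions between cultures.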

How the data were processed

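Libraries were made from poly(A)-selected RNA, and a single table of FPKM values, covering all 10 libraries, was deposited by the authors. Per the submitters' processing notes, HISAT2, SAMtools, StringTie and DESeq2 were used on mm10; versions, the role of each tool, the strand setting and the annotation were not given in the sources used here. Identifiers were joined to GENCODE annotation of GRCm38 (32938 of 37991 matched; 17074 were at 0 in every library). The members and lists were chosen with earlier results of these data known. Genes averaging 1 FPKM or more were tested on log2(FPKM + 1) with limma 3.58.1 (R 4.3.3) with a mean-variance trend, 1 mean for each of 4 groups, two-sided; the average IL-17A effect used culture as a block. Count models were not used, since FPKM is a normalized unit. Depth was estimated from the steps of low FPKM values in single-exon genes, where 48.5% to 54.8% of values were whole fragments within 0.05. Full values were given for members called in any comparison, for the 2 smallest p-values per comparison and the 2 highest means per role; H2-K1, Ifit2 and Oas1a were added after their values were seen. Numbers were taken to pair libraries within a genotype, as an assumption. Deviations of same-numbered libraries correlated at 0.227 in the knockout cultures and at 0.607, 0.488 and 0.137 in the heterozygous ones. With 2 knockout libraries per condition, both knockout cultures have the same correlation by construction. Correlations of differently numbered libraries were not compared, so these values do not settle the pairing. Since nothing says that numbers are separate animals, p-values reflect only library-to-library spread, part of which may be technical. Only the unstimulated genotype fit was run on simulated data, with independent noise and no cultures or library sets. It recovered 200 of 200 genes changed by 1 or by 2 on the log2 scale, with 9 and 13 false calls. That run cannot show how the fits behave with such cultures or sets. Alternatives were the pseudocount, filters on low values, median-of-ratios and TPM scaling, the replicate block, and leaving out libraries or cultures. Those by library number and without a knockout culture were chosen after seeing the data.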

Additional observations from a re-analysis of the deposited data

How the results depend on the processing

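In all 122 other fits limma called 0 members, and the smallest adjusted p of a member was 0.068. With culture as a replicate block, 0 members and 0 genes were called for IL-17A in either genotype and for the difference in response. As a random effect it gave 0 members, with 0 genes unstimulated and 3 with IL-17A. With no replicate block, IL-17A over 5 cultures had 0 members and 6 genes. Genes called over all fits ran from 0 to 3 (IL-17A, heterozygous), 0 to 10 (IL-17A, knockout), 0 to 126 (genotype, unstimulated), 0 to 808 (genotype, IL-17A), 0 to 6 (difference in response) and 0 to 21 (IL-17A, 5 cultures). Both highest genotype counts came without heterozygous culture 1, where genotype and library set cannot be told apart. Of 448 alternative values of named members, 27 changed sign, all of them genotype differences of Irf1, Bst2, B2m, Cxcl10, Isg15 or Stat2. Leaving out libraries of groups not compared, or fitting only the groups compared, leaves a log2 difference unchanged by construction. The 448 thus include values that could not change sign, and their share is no measure of stability. With library set as a term, log2 differences were 0.10 (Irf1), 0.25 (Bst2) and 0.092 (Cxcl10) unstimulated, and 0.37 (Irf1), 0.26 (Bst2) and 0.18 (B2m) with IL-17A. Among numbers 1 to 14 they were 0.017 (Irf1), 0.38 (Bst2) and 0.41 (Cxcl10) unstimulated, and 0.46 (Irf1), 0.14 (Bst2) and 0.14 (B2m) with IL-17A. Without heterozygous culture 1, Isg15 unstimulated was -0.21 and Stat2 with IL-17A -0.12. B2m unstimulated was -0.15 without heterozygous culture 1 and -0.065 without knockout culture 2, and Irf1 with IL-17A was 0.037 and Stat2 with IL-17A -0.009 without knockout culture 1. Leaving out single libraries gave -0.57 to 0.008 for Bst2 unstimulated, -0.15 to 0.11 for B2m unstimulated, -0.21 to 0.40 for Isg15 unstimulated, -0.37 to 0.061 for Irf1 with IL-17A and -0.12 to 0.13 for Stat2 with IL-17A. The cause of these shifts was not tested. Depth limits members near 0: up to 0.05 FPKM would not be seen for Mx1 in the shallowest library.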
